A study of Sus scrofa with 6 samples.

Results

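The genes described here are 9 members of the calcium and calmodulin signalling of neurons, taken by name from the deposited table of each library and found in all 6 tables. They are the CaMKII subunit genes CAMK2A, CAMK2B, CAMK2D and CAMK2G, the related kinase gene CAMK4, the calcineurin subunit genes PPP3CA, PPP3CB and PPP3R1, and NRGN, which encodes neurogranin. They are 9 of 28965 annotated genes, and all 9 were among the 14458 genes with enough reads to be tested. The cortex came from 3 male pigs with the UBE3A maternal deletion and from 3 male wildtype pigs, each 140 days old, with 1 library of polyadenylated RNA per animal. The deletion was inherited from the mother and is not limited to a cell type, and UBE3A encodes a ubiquitin ligase whose maternal copy is the active one in neurons. The sources used here give neither the breed, nor the deleted part of the gene, nor the cortical area sampled.

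When calcium enters a neuron it binds calmodulin, and calcium-loaded calmodulin switches on both a set of kinases and a phosphatase. CaMKII is a ring of subunits that can phosphorylate itself and stay active after the calcium signal has passed, and it is required for long-term potentiation in rodents. Calcineurin, a pair of a catalytic and a regulatory subunit, is the opposing phosphatase and is required for forms of synaptic depression. Neurogranin holds calmodulin at low calcium and releases it when calcium rises. In mice without maternal Ube3a, altered inhibitory phosphorylation of CaMKII has been described. That is a protein modification, which RNA levels do not measure.

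Total exon reads were between 21802529 and 28109327 in the deletion libraries and between 19796762 and 28126173 in the wildtype libraries. UBE3A had 330, 170 and 165 reads in deletion replicates 1 to 3, against 2087, 2723 and 1823 reads in wildtype replicates 1 to 3, so each library matched its genotype label (log2 fold change -3.32, SE 0.17, edgeR adjusted p = 0.000452). Cortical neuron markers were present in every library, and in 10 cell type lists no measured marker was at 0 in all libraries and 0 passed edgeR's adjusted threshold. The summed level of 10 excitatory neuron markers lay between 1381 and 1559 CPM in deletion libraries and between 1468 and 1724 CPM in wildtype libraries. For 6 tested oligodendrocyte markers these ranges were 9199.6 to 23003 CPM in deletion and 9879 to 20193 CPM in wildtype libraries. The sums also overlapped for inhibitory neurons (516 to 671 CPM in deletion, 589.9 to 826 CPM in wildtype), for all neurons (6401 to 8199.5 CPM, against 6368 to 7569 CPM) and for astrocytes (4164 to 4965 CPM, against 3456 to 4315 CPM). Of the 7 inhibitory markers, 6 had negative log2 fold changes (median -0.35). All 6 tested oligodendrocyte markers were positive (median 0.32), and 6 of 7 microglia markers were negative (median -0.17). Positive and negative values numbered 4 and 3 for astrocytes, 4 and 6 for excitatory neurons, and 2 and 4 for all neurons. An unadjusted edgeR p under 0.05 was found for 3 of the 7 inhibitory markers, and for 7.23% of all tested genes. It was also found for 2 of 7 astrocyte and 2 of 4 choroid plexus markers, and for 0 in each remaining list. Single markers were apart in TPM in several of these lists. Among inhibitory markers, SST stood at 345, 331 and 491 TPM in deletion replicates 1 to 3, against 689.7, 773 and 684 TPM in wildtype replicates 1 to 3. GAD2, SLC32A1 and LHX6 were also lower in TPM in every deletion library than in any wildtype library, and GAD1, PVALB and VIP overlapped. The all-neuron markers SYT1 and STMN2 and the excitatory marker NEUROD2 were lower in the same way, and the astrocyte marker SOX9 was higher. All other markers on the all-neuron, excitatory and astrocyte lists overlapped in TPM. Among them, SNAP25 stood at 3585, 4630 and 4375 TPM in deletion and 3929, 3490 and 4424 TPM in wildtype replicates 1 to 3. ALDH1L1 stood at 7.34, 4.46 and 3.99 TPM in deletion and 7.86, 9.38 and 4.61 TPM in wildtype replicates 1 to 3. The median log2 difference of all tested genes in TPM was -0.12, and the share of all genes lower without overlap in TPM was not counted. Mitochondrially encoded genes took 13.7%, 16.9% and 16.1% of exon reads in deletion replicates 1 to 3, against 13.1%, 11.2% and 13.6% in wildtype replicates 1 to 3, also without overlap. RNA integrity is given only as a minimum, a number above 6.1. The marker sums overlapped likewise for oligodendrocyte precursors (66.3 to 133 CPM, against 95.9 to 119 CPM), microglia (89.9 to 217 CPM, against 127 to 239.8 CPM), endothelium (164 to 171 CPM, against 151 to 184 CPM) and striatal neurons (23.1 to 35.1 CPM, against 16.9 to 26.4 CPM). Of the 10 lists only the 4 choroid plexus markers had sums that did not overlap (38.9 to 41.5 CPM in deletion and 23.9 to 37.9 CPM in wildtype libraries). Single libraries stood out among these markers in both groups. TTR stood at 21.1 TPM in deletion replicate 1 and at 0.81 to 1.74 TPM in the other libraries. AQP1 stood at 10.3 TPM in wildtype replicate 3, 7.73 TPM in deletion replicate 3 and 0.93 to 1.26 TPM elsewhere.

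Measured per length, as TPM, CAMK2A was the most abundant of the 9 transcripts, with a mean of 1943 TPM over the 6 libraries. NRGN followed at 1296 TPM, then CAMK2B at 505 TPM, PPP3CA at 366 TPM, CAMK2G at 232 TPM and PPP3R1 at 146 TPM. The lowest were PPP3CB at 57.3 TPM, CAMK2D at 40.7 TPM and CAMK4 at 21.6 TPM. Each gene stood above the next one in all 6 libraries. The ranges over libraries were also apart for every neighbouring pair except CAMK2A and NRGN, where the CAMK2A level was between 1.05 and 2.53 times the NRGN level. The place of NRGN in this order depends on its gene model. Its exon length, recovered from the deposited RPKM, was 261 bases, against 4555 to 11533 bases for the other members.

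**Figure D1:**
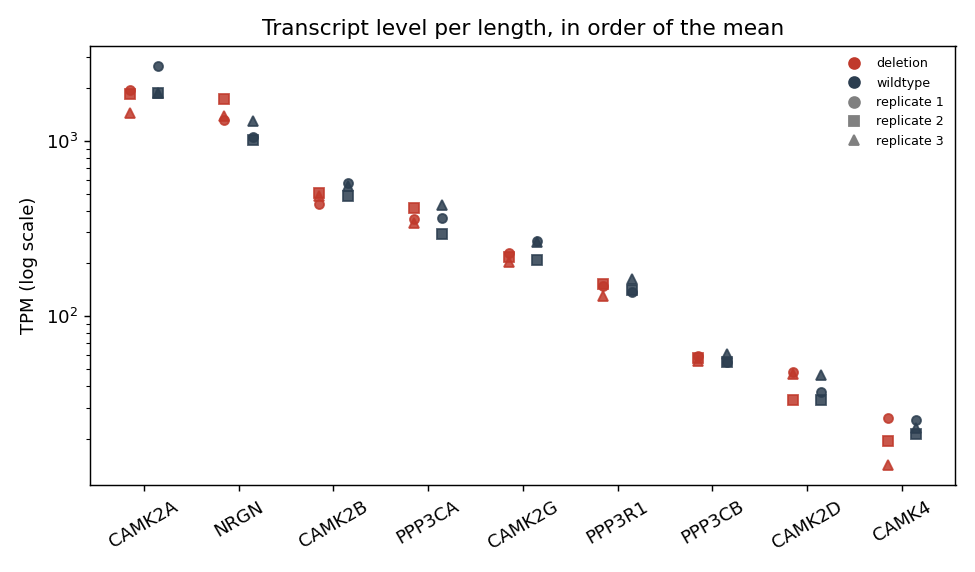
TPM (log axis) of the 9 genes in order of their mean, with deletion libraries left of wildtype libraries and a symbol for each replicate. CAMK2A spans 1443 to 2668 TPM and CAMK4 14.2 to 26.2 TPM, and the deletion points overlap the wildtype points for every gene but NRGN.

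CAMK2A encodes the alpha subunit, which predominates in the CaMKII of forebrain excitatory neurons. Its TMM-scaled level was 3618, 3911 and 2973 CPM in deletion replicates 1 to 3, against 4985, 3249 and 3506 CPM in wildtype replicates 1 to 3. Wildtype replicate 1 was the highest library and deletion replicate 3 the lowest, while deletion replicates 1 and 2 stood above wildtype replicates 2 and 3. The group means were 3501 ± 479.6 CPM in deletion and 3913 ± 937 CPM in wildtype cortex (SD, n = 3 each), a log2 fold change of -0.16 (SE 0.18, edgeR adjusted p = 0.822). The 95% interval of the fold was 0.671 to 1.19. In bulk tissue, fewer cells of a type and less RNA per cell cannot be told apart. Without wildtype replicate 1 the log2 fold change was 0.049.

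CAMK2B encodes the beta subunit, which also binds actin filaments in dendritic spines. It measured 786, 1033 and 966 CPM in deletion replicates 1 to 3 and 1037, 811 and 1009.9 CPM in wildtype replicates 1 to 3. Each group held 1 low library, deletion replicate 1 and wildtype replicate 2, and the other 4 libraries lay between 966 and 1037 CPM. The log2 fold change was -0.037 (SE 0.14, edgeR adjusted p = 0.953), with a 95% interval of the fold from 0.783 to 1.21.

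CAMK2G and CAMK2D encode the gamma and delta subunits, which are also found outside the nervous system. CAMK2G measured 399, 431 and 394 CPM in deletion replicates 1 to 3 and 466, 340.03 and 466 CPM in wildtype replicates 1 to 3, so the deletion libraries lay inside the wildtype range (log2 fold change -0.054, SE 0.13, edgeR adjusted p = 0.923). CAMK2D measured 127, 101 and 138 CPM in deletion replicates 1 to 3 and 99.4, 82.8 and 125 CPM in wildtype replicates 1 to 3. Its 2 highest libraries were deletion libraries and its 2 lowest wildtype libraries, with wildtype replicate 3 and deletion replicate 2 between them. The log2 fold change of CAMK2D was 0.25 (SE 0.17, edgeR adjusted p = 0.722), the only positive value among the kinases, with a 95% interval of the fold from 0.903 to 1.57.

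**Figure D2:**
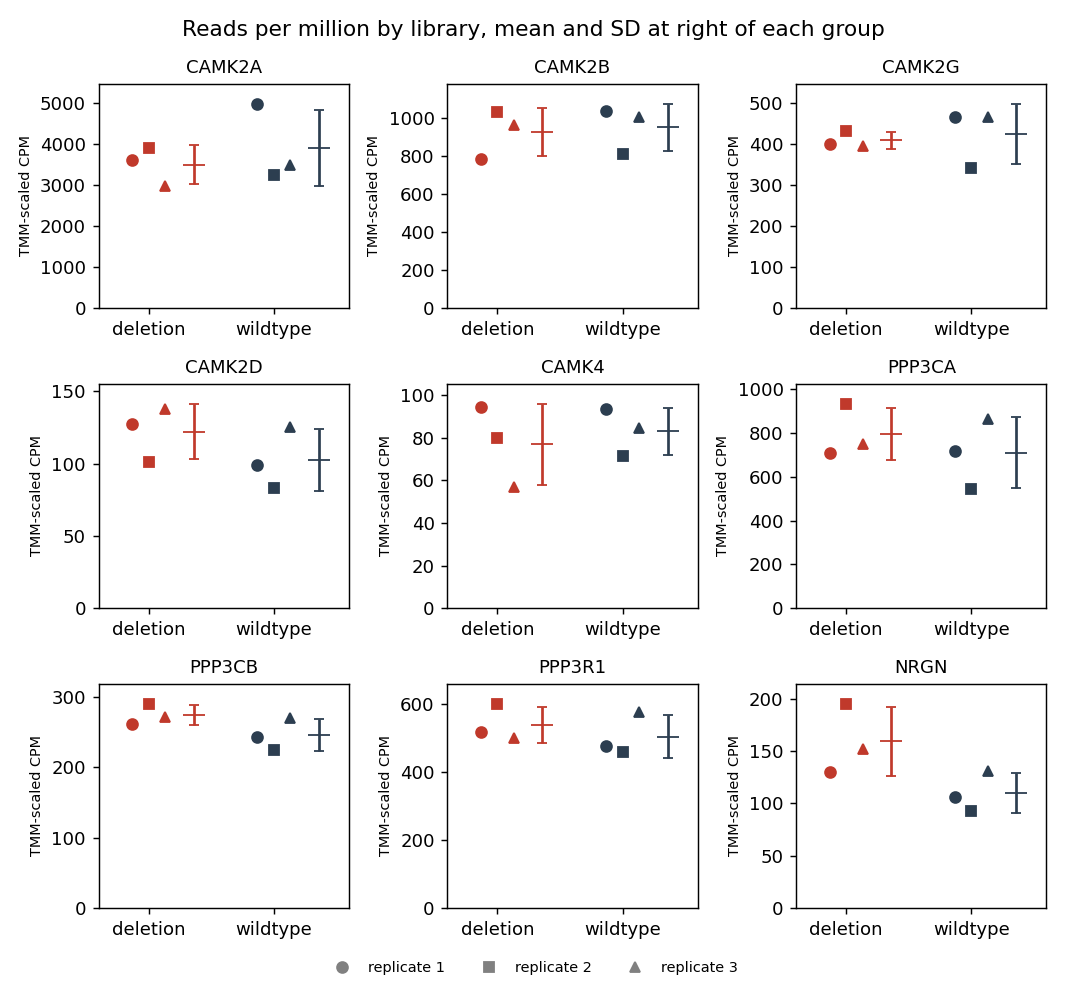
TMM-scaled level (CPM) of each gene (linear axes from 0), with deletion libraries left of wildtype libraries, a symbol for each replicate, and the group mean with its SD at the right of the points. The groups overlap in every panel, by the least margin for NRGN, where deletion replicate 1 stands at 130.4 CPM and wildtype replicate 3 at 131 CPM.

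The shares of the 4 CaMKII subunits in their summed transcripts overlapped between the groups for each subunit. CAMK2A made up 73.2%, 71.0% and 66.3% of the summed TPM of the 4 subunits in deletion replicates 1 to 3, against 75.3%, 72.1% and 68.3% in wildtype replicates 1 to 3. CAMK2B made up 19.3% ± 2.90 in deletion and 18.3% ± 2.08 in wildtype cortex (SD, n = 3 each). CAMK2G held 8.80% ± 0.53 and 8.43% ± 1.14, and CAMK2D 1.74% ± 0.44 and 1.34% ± 0.33, of the summed TPM in deletion and wildtype cortex (SD, n = 3 each). The log2 ratio of CAMK2A to CAMK2B averaged 1.87 ± 0.29 in deletion and 1.98 ± 0.24 in wildtype cortex, and the ranges overlapped (two-sided exact permutation test p = 0.7, adjusted over 3 ratios 0.9). With 3 animals against 3, the smallest p this test allows is 0.1.

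**Figure D3:**
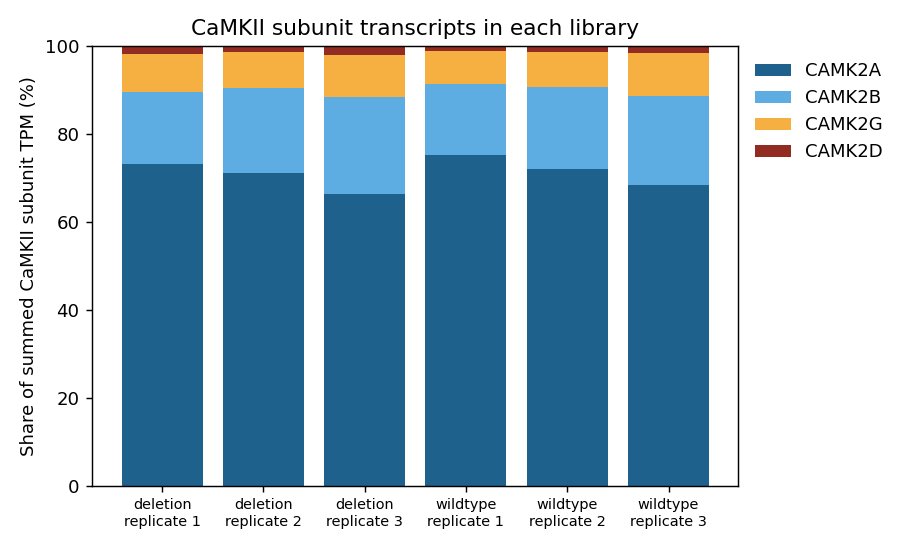
Share (%) of each CaMKII subunit in the summed TPM of the 4 subunit genes, one bar per library, deletion libraries left of wildtype libraries. CAMK2A takes 66.3% to 75.3% of every bar, and CAMK2D at most 2.14%.

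CAMK4 encodes a nuclear kinase that phosphorylates the transcription factor CREB. It was the least abundant member per length, and it measured 94.4, 79.7 and 56.7 CPM in deletion replicates 1 to 3 against 93.4, 71.5 and 84.4 CPM in wildtype replicates 1 to 3. Deletion libraries gave both the highest and the lowest value. The log2 fold change was -0.11 (SE 0.19, edgeR adjusted p = 0.888), and it was 0.067 without deletion replicate 3.

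The calcineurin genes had higher means in the deletion cortex, with overlapping groups for each of the 3. PPP3CA, the main catalytic subunit gene of brain, measured 710.5, 933 and 748 CPM in deletion replicates 1 to 3, against 720.01, 544 and 866 CPM in wildtype replicates 1 to 3. The lowest library was a wildtype one and the highest a deletion one, and the others were mixed (log2 fold change 0.17, SE 0.18, edgeR adjusted p = 0.812). Without wildtype replicate 2 its log2 fold change was 0.0076.

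PPP3CB, the other catalytic subunit gene measured here, had the smallest range of log2 CPM over the 6 libraries among the 9 genes (0.37). It measured 261, 290.4 and 272 CPM in deletion replicates 1 to 3 and 244, 225 and 270.2 CPM in wildtype replicates 1 to 3. All 3 deletion libraries stood above the wildtype mean, but wildtype replicate 3 stood above deletion replicate 1. The log2 fold change was 0.16 (SE 0.10, edgeR adjusted p = 0.708), with a 95% interval of the fold from 0.953 to 1.31.

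PPP3R1 encodes the calcium-binding regulatory subunit, calcineurin B. It measured 515, 599 and 499.9 CPM in deletion replicates 1 to 3 and 476, 457 and 575 CPM in wildtype replicates 1 to 3. Wildtype replicate 3 was second only to deletion replicate 2 (log2 fold change 0.098, SE 0.12, edgeR adjusted p = 0.841). The direction for PPP3R1 depends on the scale: on the deposited TPM its log2 difference was -0.034, where the median of all tested genes was -0.12.

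PPP3CA supplied 86.4% ± 1.07 of the summed TPM of both catalytic subunit genes in deletion and 86.2% ± 1.75 in wildtype cortex (SD, n = 3 each). The log2 ratio of PPP3CA to PPP3CB was 2.68 ± 0.13 in deletion and 2.65 ± 0.21 in wildtype cortex (two-sided exact permutation test p = 0.9, adjusted over 3 ratios 0.9). PPP3CB and CAMK2G lie close together in the pig genome, with 10 protein-coding genes between them by RefSeq's annotation of Sscrofa11.1.

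The calcineurin genes shared their extreme libraries. Deletion replicate 2 was the highest of the 6 libraries for PPP3CA, PPP3CB, PPP3R1 and NRGN, and wildtype replicate 2 was the lowest for those 4 genes and for CAMK2D and CAMK2G. Wildtype replicate 2 had 20193 CPM of summed oligodendrocyte markers and deletion replicate 2 had 9199.6 CPM, the lowest of the 6. Deletion replicate 1, with the highest sum of 23003 CPM, had ranks 3 to 5 for the calcineurin genes. The other libraries did not all follow an inverse order. Wildtype replicate 1, with a low sum of 10078 CPM, had ranks 4 to 5 for these genes, and deletion replicate 3, with 18276.5 CPM, had ranks 2 to 4. Wildtype replicate 3, with 9879 CPM, had ranks 2 to 3. The mitochondrial share of reads was also highest in deletion replicate 2 (16.9%) and lowest in wildtype replicate 2 (11.2%), and the share of exon reads in the total behind the RPKM was lowest in deletion replicate 2 (81.1%) and highest in wildtype replicate 2 (85.3%). The part of these contents in the order of libraries was not tested.

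NRGN was the member with the largest difference. It measured 130.4, 195.03 and 152 CPM in deletion replicates 1 to 3, against 105.6, 93.1 and 131 CPM in wildtype replicates 1 to 3. All deletion libraries stood above the wildtype mean, but deletion replicate 1 was just under wildtype replicate 3, so the groups overlapped. The means were 159 ± 32.8 CPM in deletion and 109.9 ± 19.3 CPM in wildtype cortex (SD, n = 3 each), a 1.45-fold difference with a 95% interval from 1.09 to 1.92. The log2 fold change of 0.54 (SE 0.18) had an unadjusted p of 0.0162 in edgeR's test and did not pass adjustment over all genes (adjusted p = 0.683, rank 275 of 14458 by p). DESeq2 gave an adjusted p of 0.451. Unlike NRGN in CPM, the mitochondrial share of reads was higher in each deletion library than in any wildtype library. The margin was narrow, at 13.67% in deletion replicate 1 against 13.61% in wildtype replicate 3. With mitochondrial and haemoglobin genes removed, the NRGN log2 fold change was 0.53 (edgeR adjusted p = 0.68). Removing those genes only takes their reads out of the counts, so it cannot show what the mitochondrial share may mark, which was not tested.

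The NRGN reads numbered 3687, 4251 and 3250 in deletion replicates 1 to 3 and 2507, 2705 and 2612 in wildtype replicates 1 to 3. At the lowest of these counts, counting error alone is 2.00% of the value, while the SD between animals was 20.6% of the mean in deletion and 17.6% in wildtype libraries. On the TPM scale the groups did not overlap: NRGN stood at 1314, 1724 and 1379 TPM in deletion replicates 1 to 3 and at 1055, 1004 and 1299 TPM in wildtype replicates 1 to 3. Groups apart in that direction on this scale were found for 1.92% of all tested genes. The median log2 difference of all tested genes on this scale was -0.12. In CPM, where the NRGN groups overlapped, the share apart in that direction was 6.88%. The log2 difference in TPM was 0.39, or 0.51 relative to the median of all tested genes.

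The size of the NRGN difference varied with the animals compared. Within animals whose number begins with 14, 1 per group, the log2 difference was 0.30, and within those whose number begins with 15, 2 per group, it was 0.64. Without deletion replicate 2 it was 0.37, and without wildtype replicate 3 it was 0.68. Genes with short exon models stood slightly higher in the deletion libraries. The median log2 fold change was 0.095 over 81 tested genes below 500 bases, 0.11 over 396 genes of 500 to 1000 bases and -0.033 over 1884 genes of 8000 bases or more. With an offset for gene length, the NRGN log2 fold change was 0.40 (edgeR adjusted p = 0.647).

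Against other transcripts of the same library, NRGN gave the same order of groups. Its log2 TPM ratio to CAMK2A was -0.57, -0.10 and -0.065 in deletion replicates 1 to 3, against -1.34, -0.90 and -0.52 in wildtype replicates 1 to 3. The ranges overlapped, with wildtype replicate 3 above deletion replicate 1 (difference 0.67, two-sided exact permutation test p = 0.2, adjusted over 3 ratios 0.6). The ratios to neuron markers were added after the values were seen and have no test. Relative to the summed TPM of the 10 excitatory neuron markers, most of which comes from the vesicular glutamate transporter SLC17A7, NRGN stood at 0.28, 0.64 and 0.41 in deletion and at -0.35, -0.59 and 0.20 in wildtype replicates 1 to 3 on the log2 scale, without overlap. SLC17A7 itself stood at 795, 828 and 766 TPM in deletion and at 1021, 1157 and 824 TPM in wildtype replicates 1 to 3. The ratio differed by 0.69 between the groups and NRGN alone by 0.39, so part of the difference in the ratio came from the markers. How many genes would be apart in such a ratio was not counted. CAMK2A relative to the same markers averaged 0.69 ± 0.20 in deletion and 0.67 ± 0.34 in wildtype cortex (SD, n = 3 each).

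**Figure D4:**
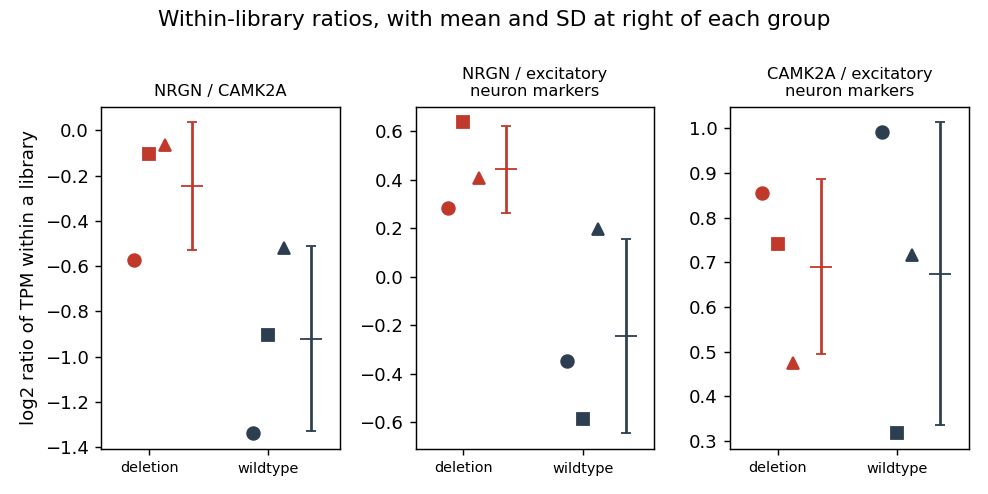
Log2 ratios of TPM within each library (linear axes of log2 values, not starting at 0), deletion libraries left of wildtype libraries, with the group mean and SD at the right of the points. The NRGN ratio to the excitatory neuron markers is at least 0.28 in deletion and at most 0.20 in wildtype libraries, while the CAMK2A ratio to the same markers overlaps. SLC17A7, most of the marker sum, lies at 766 to 828 TPM in deletion and 824 to 1157 TPM in wildtype libraries.

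At an adjusted p under 0.05 in edgeR, 0 of the 9 genes passed, where 0.00692% of all tested genes did (1 gene, UBE3A). DESeq2 also called 0 of the 9, and 0.0404% of the genes it tested. At an unadjusted p under 0.05 there was 1 member, NRGN, which is 11.1% of the members against 7.23% of all tested genes (3.33% higher and 3.89% lower in deletion). Groups that did not overlap in CPM were found for 0 of the 9, against 13.9% of all tested genes (6.88% higher and 7% lower in deletion). The log2 fold changes were positive for 5 members and negative for 4, with a median of 0.098, beside a median of 0.0028 over all tested genes. Their standard errors were between 0.10 and 0.19. In the authors' deposited table, NRGN has a fold change of 1.46 with a p of 0.00114 and an adjusted p of 0.27. For the other 8 members the fold changes in the authors' deposited table run from -1.11 (CAMK2A) to 1.20 (CAMK2D), each with an adjusted p of 0.997. The authors' adjusted p was thus under 0.05 for 0 of the 9 members, and for 27 of 16992 genes (0.159%).

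**Figure D5:**
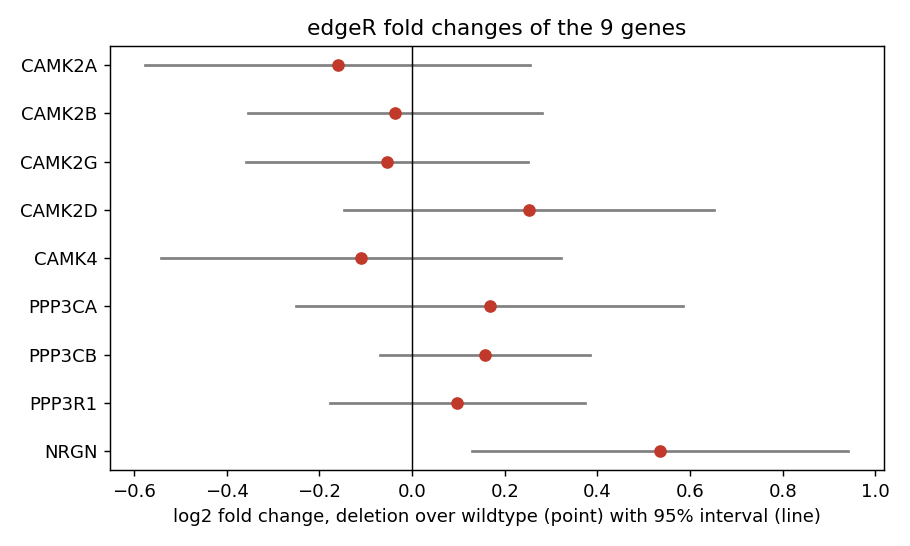
Log2 fold change of deletion over wildtype from edgeR for the 9 genes (points) with 95% intervals (lines). Only the interval of NRGN, from 0.13 to 0.94, lies wholly on one side of 0, before any adjustment for the number of genes tested.

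Other genes of the pathway were read from 4 lists. Of 51 listed genes 44 were tested, and 0 passed edgeR's or DESeq2's adjusted threshold. An unadjusted p under 0.05 in edgeR's test was found for 4 (9.09%), against 7.23% of all tested genes. All 4 were lower in the deletion cortex, where the share of all tested genes was 3.89% lower and 3.33% higher. The median log2 fold change was -0.099, with 14 positive and 30 negative values, where 50.5% of all tested genes were positive. Groups did not overlap for 9 of the 44 (20.5%), against 13.9% of all tested genes. Of these, 9 were lower and 0 higher, where the share of all tested genes was 7% lower and 6.88% higher.

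Among kinase partners, 2 of 12 tested genes had positive and 10 negative log2 fold changes (median -0.10), and 0 passed the adjusted or the unadjusted threshold. PPM1F, a phosphatase that reverses CaMKII autophosphorylation, measured 50.7 ± 1.58 CPM in deletion and 55.7 ± 3.74 CPM in wildtype cortex (SD, n = 3 each). CAMKV, a kinase-like protein of dendritic spines without kinase activity, measured 284 ± 12.1 and 307 ± 7.40 CPM in deletion and wildtype cortex. CRTC1, a CREB coactivator that calcineurin dephosphorylates, had a log2 fold change of -0.16, and its groups overlapped. CAMK2N1, an inhibitor protein of CaMKII, measured 1146 ± 176 CPM in deletion and 1177 ± 269 CPM in wildtype cortex.

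Calmodulin itself is encoded by several genes that give the same protein. CALM3 measured 2122, 2402 and 2092 CPM in deletion replicates 1 to 3 and 2813, 2306 and 2453 CPM in wildtype replicates 1 to 3, with overlapping groups (log2 fold change -0.19, SE 0.11, edgeR adjusted p = 0.7). PCP4, a small calmodulin-binding protein with an IQ motif like that of neurogranin, measured 64.5, 96.3 and 119 CPM in deletion replicates 1 to 3 and 73.4, 68.2 and 81.7 CPM in wildtype replicates 1 to 3. Its groups overlapped (log2 fold change 0.33, SE 0.21, edgeR adjusted p = 0.713). GAP43, another IQ-motif protein of the neurogranin family, had a log2 fold change of 0.0052 and MARCKS, a calmodulin-binding membrane protein, one of 0.060. Over the 7 tested genes of this list the median was 0.0059, and 0 passed either threshold.

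Of 15 tested calcineurin partners and substrates, 6 had positive and 9 negative log2 fold changes (median -0.012), and 0 passed the adjusted threshold. MEF2D, a transcription factor that calcineurin dephosphorylates, measured 179.9, 164 and 154 CPM in deletion replicates 1 to 3 and 233, 209.6 and 204 CPM in wildtype replicates 1 to 3. Every deletion library stood below every wildtype library (log2 fold change -0.38, SE 0.10, unadjusted p = 0.00472 and adjusted p = 0.683 in edgeR's test). Its relative MEF2C stood at 602 ± 31.8 CPM in deletion and 698 ± 59.3 CPM in wildtype cortex, also with groups apart (edgeR adjusted p = 0.685). NFATC1, a calcineurin-activated transcription factor, measured 2.12 ± 0.07 CPM in deletion and 3.47 ± 0.97 CPM in wildtype cortex (edgeR adjusted p = 0.683). RCAN1, a calcineurin inhibitor whose transcription calcineurin itself drives through NFAT, stood at 61.7 ± 4.32 CPM in deletion and 59.5 ± 5.04 CPM in wildtype cortex (SD, n = 3 each).

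Of 10 tested synaptic binding partners of CaMKII, 1 had a positive and 9 a negative log2 fold change (median -0.22), and 0 passed the adjusted threshold. ACTN2, an alpha-actinin that binds CaMKII in spines, measured 37.5 ± 3.57 CPM in deletion and 47.3 ± 6.91 CPM in wildtype cortex (edgeR adjusted p = 0.683). SHANK3, a scaffold of the postsynaptic density, stood at 174 ± 20.1 CPM in deletion and 224 ± 50.5 CPM in wildtype cortex with overlapping groups (edgeR adjusted p = 0.685). Long exon models belong to ACTN2 (11469 bases) and SHANK3 (8544 bases), as to MEF2D (8243 bases) and NFATC1 (9122 bases) above. All are in the range of 8000 bases or more, where the median of all genes was -0.033. Of the members in that range, PPP3CB (0.16) and PPP3R1 (0.098) had positive log2 fold changes and CAMK4 (-0.11) a negative one. The part of length in these values was not tested.

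The genes most like a member over the 6 libraries were found for the 3 members with the widest range, by the root-mean-square difference between log2 CPM profiles centred on their means, among 12671 genes with a symbol. Nearest to NRGN were PLAC9 (difference 0.061, at 1.34 to 3.35 CPM), LSM5, a component of an RNA-binding ring in splicing (0.080), and SERPINA5 (0.084, at 0.379 to 1.19 CPM). Nearest to PPP3CA were CLTRN (0.044, at 0.482 to 1.19 CPM), TMEM150C (0.046) and FSTL1 (0.062). Nearest to CAMK2A were RASL10B (0.034), WFDC1 (0.053) and SP7 (0.059), the last at 0.516 to 1.05 CPM. These likenesses are a description over 6 libraries, and for genes near 1 CPM the 0.5 CPM added before taking logs narrows the profile.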

How the data were processed

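Cortex RNA of 6 pigs was sequenced as stranded polyadenylated-RNA libraries of paired 150-base reads, per the labels' protocols. The aligner, counting tool, genome build and use of strand are not given in the sources used. Per the file headers, the authors' tables hold counts of exon reads, RPKM, TPM and a column named CPM. That column was treated as a score of the authors' own scaling, because it sums to 970329.2 to 1022538.2 per library, and was not used. The authors' deposited table of the comparison, per the file headers, gives a signed fold change (handled as a score) and p-values from a test that is not stated. Total exon reads were 19796762 to 28126173 per library, and blank cells were read as 0. Between libraries of a group, chi-square per degree of freedom was 15.1 to 55.0, so no library repeated another of its group. Libraries of different groups were not compared in this way. Animals are separate by their numbers, and replicate numbers were given in accession order.

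Counts were filtered with filterByExpr, scaled with TMM and tested with edgeR 4.0.16 in R 4.3.3 (quasi-likelihood F test, robust, no covariate), with Benjamini-Hochberg adjustment over 14458 genes at 0.05. Standard errors are the size of the log2 fold change divided by the root of F. Levels written as CPM are TMM-scaled, and log2 profiles added 0.5 CPM. Exon lengths came from the deposited counts and RPKM, using the read number that made lengths whole within 0.01 base (100% of 14282 genes with at least 20 reads in a library). Levels between genes are compared in TPM only. The TPM ratios were tested by exact permutation (scipy 1.17.1). Alternatives used DESeq2 1.42.0 and limma 3.58.1, among others.

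On simulated data for this comparison (14458 genes, 200 changed) the edgeR step called 40% of genes changed 1.5-fold, 80% at 2-fold and 94% at 3-fold, with 3 false calls. There the spread of each gene followed the trend over all genes, and only well-counted genes were changed. With 200 changed genes the adjustment is also milder than in the data, where 1 gene passed. These shares therefore do not give the chance of a call for the members. The 9 members, the 4 pathway lists and the 10 marker lists were chosen with earlier results of these data known. Named from each pathway list were the 3 genes of lowest p, as none passed; for the 3 members of widest range, the 3 genes of closest profile were named. CAMK2N1, GAP43 and RCAN1 were named for their role after their values were seen. Of the genes picked by lowest p, 1 is not reported here.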

Additional observations from a re-analysis of the deposited data

How the results depend on the processing

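Over 15 other settings, 0 of the 9 genes passed the adjusted threshold in any (lowest adjusted p 0.202, for NRGN without deletion replicate 1), and UBE3A passed in all. CAMK2D, NRGN, PPP3CA and PPP3CB kept a positive log2 fold change in each of the 15. With libraries left out singly, the log2 fold change ranged from -0.28 to 0.049 for CAMK2A, -0.14 to 0.069 for CAMK2B, -0.19 to 0.020 for CAMK2G, -0.29 to 0.067 for CAMK4, 0.37 to 0.68 for NRGN, 0.0076 to 0.34 for PPP3CA, 0.12 (without wildtype replicate 2) to 0.42 (without wildtype replicate 3, edgeR adjusted p = 0.537) for CAMK2D, 0.096 (without wildtype replicate 2) to 0.23 for PPP3CB and 0.015 (without deletion replicate 2) to 0.21 (without wildtype replicate 3) for PPP3R1. The difference in the log2 ratio ranged from -0.25 to 0.041 for CAMK2A over CAMK2B and from -0.093 to 0.11 for PPP3CA over PPP3CB. The sign changed without wildtype replicate 1 (CAMK2A, CAMK2B, CAMK2G and the CAMK2A ratio), wildtype replicate 2 (the PPP3CA ratio), wildtype replicate 3 (CAMK2B, CAMK2G), deletion replicate 1 (CAMK2B), deletion replicate 2 (the PPP3CA ratio) and deletion replicate 3 (CAMK4 and the CAMK2A ratio). The cause was not tested. With limma on log2(TPM + 0.5), a setting chosen after seeing the data, PPP3R1 was at -0.034, CAMK2A at -0.28, CAMK2B at -0.17, CAMK2G at -0.17, CAMK4 at -0.26, CAMK2D at 0.12, PPP3CA at 0.048 and PPP3CB at 0.026, and the median of all genes was at -0.12. With limma-voom and sample weights, CAMK4 was at -0.34, CAMK2A at -0.30, CAMK2G at -0.10 and CAMK2B at -0.020. The count of genes past the threshold was 1, against 7 with DESeq2, 2 without a filter on low counts and 1 to 2 with libraries left out singly (2 without deletion replicate 1). Where a group is left with 2 libraries, the fit pools the spread over both groups. No paired analysis was possible because the labels give no replicate numbers that the groups share; the animal-number prefix as a covariate left NRGN at 0.52 and changed no call among the members. Unique exon reads were not tried in place of total exon reads.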
